A study of Mus musculus with 16 samples.

Results

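Kupffer cells, the resident macrophages of the liver, line the sinusoids and clear particles, aged cells and microbes from portal blood. Other macrophages arise from monocytes that enter the organ, and in steatohepatitis they are known to join and partly replace the residents. Clec4f is a C-type lectin that in the mouse liver is made by Kupffer cells, and Cd5l, also called AIM, is a secreted scavenger protein of tissue macrophages. The remaining genes are shared by resident and monocyte-derived macrophages: Csf1r is the receptor for the growth factors CSF1 and IL34, C1qc is the C chain of the complement protein C1q, Adgre1 encodes the surface receptor F4/80, and Cd68 encodes macrosialin, a lysosomal glycoprotein.

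These 6 genes were chosen by name and make up 6 of the 5205 genes in the deposited tables. All 6 were in the TSP1F/F table of 2558 genes, and 5 were in the TSP1ΔPf4 table of 3399 genes, so that Clec4f was not analysed in TSP1ΔPf4 livers here. RNA was sequenced from whole livers of 16 male mice on the C57BL6 background, 4 in each of 4 groups. TSP1F/F mice carry a floxed gene for thrombospondin 1, and TSP1ΔPf4 mice carry the same floxed gene together with Pf4-Cre, which deletes it in megakaryocytes and platelets. Both genotypes were fed a low-fat (LF) or an AMLN diet, a diet rich in fat, fructose and cholesterol, for 32 weeks. No group with Pf4-Cre and an intact gene was among the samples used here, and the labels give no age. Library totals ranged from 17127965 to 39753019, and values are given in CPM, the count scaled to this total. Mice are named by their replicate number within a group, and the same number in another group is another animal. Since whole liver was sequenced, fewer macrophages and less RNA per macrophage cannot be told apart.

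PU.1, the product of Spi1, is a transcription factor on which macrophages depend, and the sequence before the start site is shown for the 4 genes that matched the RefSeq promoter table, to show which of them hold its core motif. GAGGAA was searched on both strands of the 250 bases before the RefSeq start and was found in 3 of the 4, against 23.3% of all 32851 promoters in the table, and capitals mark it. It stood 193 to 188 bases before the start of C1qc and 66 to 61 bases before that of Cd5l, both times on the opposite strand (printed as TTCCTC), and 225 to 220 bases before the start of Cd68. The composite motif of PU.1 and IRF was found in 0 of the 4 and in 2.3% of all promoters. The printed stretches (RefSeq, GRCm38.p6, 5' to 3' on the gene's strand) stop at or before the start of the GENCODE gene, and a match is a description only. They are chr6:83656188-83656366 for Clec4f, chr3:87357631-87357880 for Cd5l, chr4:136893066-136893164 for C1qc and chr11:69666171-69666420 for Cd68.
Clec4f: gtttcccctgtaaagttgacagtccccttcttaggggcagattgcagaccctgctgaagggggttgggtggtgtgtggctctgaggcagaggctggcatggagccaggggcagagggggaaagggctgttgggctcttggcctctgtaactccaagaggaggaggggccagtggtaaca
Cd5l: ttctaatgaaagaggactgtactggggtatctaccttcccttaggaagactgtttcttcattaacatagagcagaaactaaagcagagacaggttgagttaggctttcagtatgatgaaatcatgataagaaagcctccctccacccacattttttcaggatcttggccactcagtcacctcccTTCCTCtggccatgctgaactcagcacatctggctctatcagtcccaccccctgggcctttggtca
C1qc: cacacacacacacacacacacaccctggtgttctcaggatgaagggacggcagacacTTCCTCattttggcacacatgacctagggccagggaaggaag
Cd68: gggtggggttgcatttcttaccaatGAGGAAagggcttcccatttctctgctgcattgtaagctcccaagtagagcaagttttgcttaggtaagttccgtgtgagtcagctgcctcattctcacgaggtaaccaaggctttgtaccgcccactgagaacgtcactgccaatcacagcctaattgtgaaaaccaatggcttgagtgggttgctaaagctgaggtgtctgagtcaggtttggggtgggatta

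The genes lie on different chromosomes of mm10, and all are protein-coding. Clec4f (ENSMUSG00000014542) lies at chr6:83644542-83656187 on the reverse strand, and Cd5l (ENSMUSG00000015854) at chr3:87357881-87371073 on the forward strand. Csf1r (ENSMUSG00000024621) lies at chr18:61105572-61132149 on the forward strand, where its 3' end overlaps Hmgxb3 on the opposite strand and where a microRNA gene, Mir6983, lies within it. Whether reads were counted by strand is not given in the sources used here, so reads from that overlap could not be assigned with certainty. C1qc (ENSMUSG00000036896) lies at chr4:136889804-136893065 on the reverse strand, Adgre1 (ENSMUSG00000004730) at chr17:57358691-57483527 on the forward strand, and Cd68 (ENSMUSG00000018774) at chr11:69664213-69666153 on the reverse strand. No other GENCODE gene overlaps these 5 genes.

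The first question was how the AMLN diet changed these genes in TSP1F/F livers. Csf1r and C1qc rose, 5.27-fold and 4.17-fold, and passed the test (the quasi-likelihood test of edgeR, with p adjusted by the Benjamini-Hochberg method and a gene called where that p was under 0.05 and the log2 change over 0.25 in size). Cd5l and Cd68 were 5.67-fold and 5.98-fold higher and did not pass, although each AMLN-fed mouse lay above each LF-fed mouse. Adgre1 and Clec4f were 3.58-fold and 2.23-fold higher with overlapping groups. The 2 of 6 members called compare with 2.39% of the 2096 genes tested that were called higher, and the 4 of 6 whose mice did not overlap compare with 36.6% of all genes tested. Both tables hold only genes that the authors had selected on this diet contrast in the same mice, so a difference by diet is not independent evidence for any of them.

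**Figure D1:**
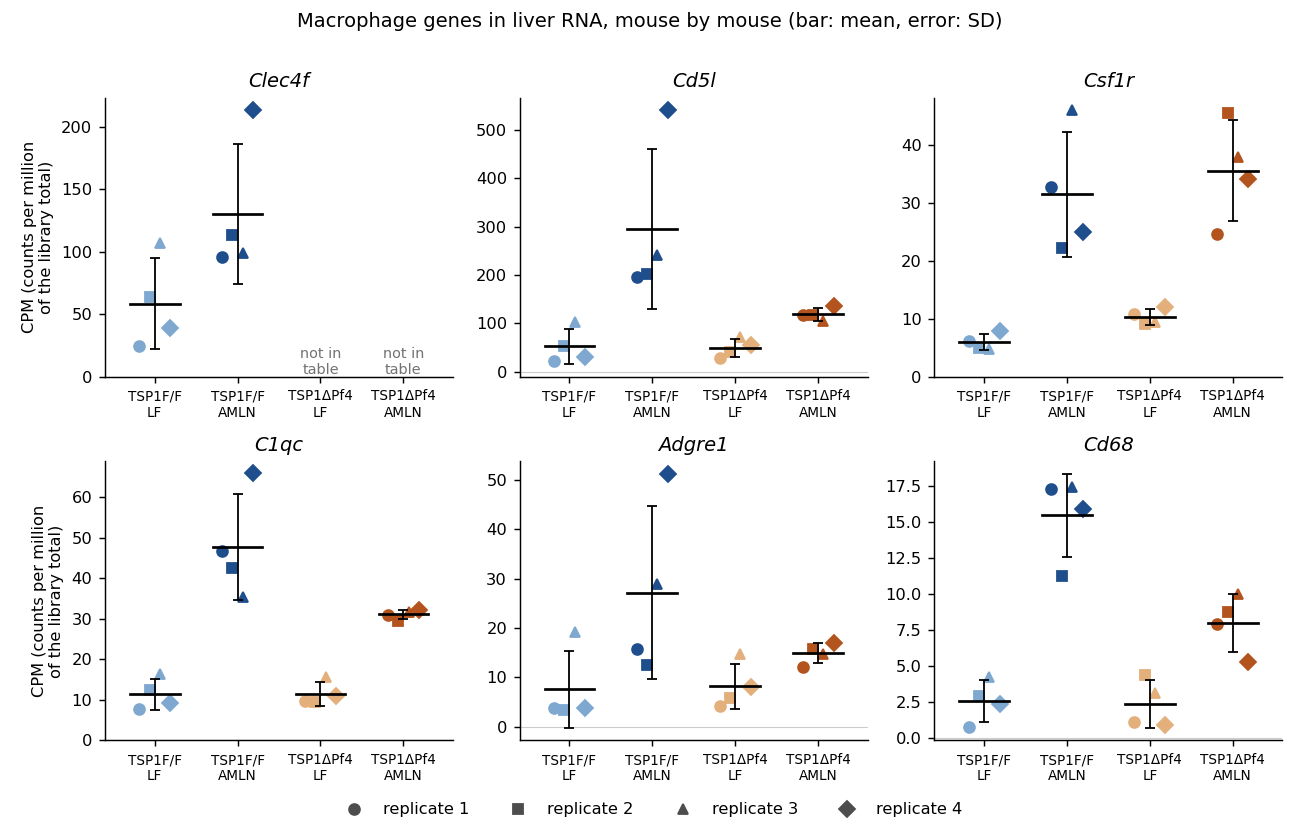
CPM of each gene in each mouse (points, shaped by replicate number) in the 4 groups of 4 mice, with the group mean (bar) and SD (error). All 4 AMLN-fed mice lie above all 4 LF-fed mice of their genotype for Cd5l, Csf1r, C1qc and Cd68, and the groups overlap for Adgre1 and, in TSP1F/F livers, for Clec4f.

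Clec4f stood at 24.3, 64.1, 107 and 38.8 CPM in LF-fed TSP1F/F mice 1 to 4 and at 96.1, 113, 98.9 and 214 CPM in AMLN-fed mice 1 to 4. LF-fed mouse 3 lay above AMLN-fed mice 1 and 3, and AMLN-fed mouse 4 stood far above the other three. The means were 58.5 ± 36.2 (SD, n = 4) and 130 ± 56.0 CPM (SD, n = 4), a log2 fold change of 1.16 (SE 0.44) with an adjusted p of 0.384. The median log2 difference of all 2096 genes tested was 1.15. Without AMLN-fed mouse 4 the log2 fold change was 0.81, and without LF-fed mouse 3 it was 1.62.

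Cd5l stood at 22.7, 52.0, 103 and 30.2 CPM in the LF-fed mice and at 195, 202, 240 and 541 CPM in the AMLN-fed mice of this genotype. The order of the LF-fed mice was that of Clec4f, and AMLN-fed mouse 4 was again the highest. The means were 52.0 ± 36.3 and 295 ± 165 CPM (SD, n = 4 each), and the log2 fold change was 2.50 (SE 0.52, adjusted p = 0.0749).

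Csf1r, the growth factor receptor, was measured at 6.16, 4.98, 4.85 and 7.88 CPM on the LF diet and at 32.7, 22.2, 46.2 and 25.0 CPM on the AMLN diet. The mice that were highest for Clec4f and Cd5l were low here, LF-fed mouse 3 being the lowest of its group, and the groups were far apart. Its mean went from 5.97 ± 1.40 to 31.5 ± 10.7 CPM (SD, n = 4 each), a log2 fold change of 2.40 (SE 0.33, adjusted p = 0.0182). With single mice removed the call stood in 3 of 8 fits, with adjusted p up to 0.0681, and was lost without AMLN-fed mouse 1 or 3 or LF-fed mouse 1, 2 or 4.

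C1qc had 7.72, 12.4, 16.3 and 9.19 CPM on the LF diet and 46.8, 42.6, 35.3 and 65.9 CPM on the AMLN diet. The lowest AMLN-fed mouse was above the highest LF-fed one, and the mean went from 11.4 ± 3.82 to 47.7 ± 13.1 CPM (SD, n = 4 each). Its log2 fold change was 2.06 (SE 0.32, adjusted p = 0.0263), and among 8 fits that each omitted a mouse the call stood only without LF-fed mouse 3. C1qa and C1qb, the genes of the other C1q chains beside it on chromosome 4, had log2 fold changes of 1.56 (SE 0.50, adjusted p = 0.272) and 2.23 (SE 0.44, adjusted p = 0.0610).

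Adgre1 gave 3.86, 3.48, 19.2 and 3.71 CPM on the LF diet and 15.8, 12.6, 28.9 and 51.1 CPM on the AMLN diet. The LF-fed mice were alike but for mouse 3, which lay above AMLN-fed mice 1 and 2. The means of 7.58 ± 7.78 and 27.1 ± 17.5 CPM (SD, n = 4 each) differed by 1.84 on the log2 scale (SE 0.65, adjusted p = 0.330). Without LF-fed mouse 3 the value was 2.88 with an adjusted p of 0.0455, and Cd5l (3.08, adjusted p = 0.0291) and Cd68 (2.92, adjusted p = 0.0357) were called as well in that fit.

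Cd68 was the least abundant in CPM, at 0.783, 2.89, 4.25 and 2.40 CPM on the LF diet, where it rested on 15 to 77 counts, and at 17.2, 11.3, 17.4 and 15.8 CPM on the AMLN diet. The AMLN-fed mice were close together, and AMLN-fed mouse 4 did not stand out. The mean went from 2.58 ± 1.43 to 15.4 ± 2.86 CPM (SD, n = 4 each), a log2 fold change of 2.58 (SE 0.47, adjusted p = 0.0529).

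In TSP1ΔPf4 livers the same comparison again gave higher values of all 5 members analysed, and again Csf1r (3.45-fold) and C1qc (2.71-fold) were the ones that rose and passed the test. The 2 of 5 compare with 1.46% of 3089 genes called higher. All 4 AMLN-fed mice lay above all 4 LF-fed mice for 4 of 5 members, against 20.4% of all genes tested. The median log2 difference of all genes tested was -0.54 in this genotype, below that of TSP1F/F livers, and all 5 members lay above it. With DESeq2's scaling that median was 0.775 in TSP1F/F and -0.20 in TSP1ΔPf4 livers, and all members stayed above 0 under each scaling tried.

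Csf1r had 10.8, 9.03, 9.52 and 12.0 CPM in LF-fed TSP1ΔPf4 mice 1 to 4 and 24.8, 45.6, 38.1 and 34.1 CPM in the AMLN-fed mice. The lowest AMLN-fed mouse was well above the highest LF-fed one, and the log2 fold change was 1.79 (SE 0.23, adjusted p = 0.0227). The call was lost without AMLN-fed mouse 2 or 3 or LF-fed mouse 2 or 4. C1qc had 9.61, 9.56, 15.8 and 10.9 CPM on the LF diet and 30.9, 29.5, 31.7 and 32.3 CPM on the AMLN diet. The 4 AMLN-fed mice were nearly equal, with a coefficient of variation of 3.84%, and the log2 fold change was 1.44 (SE 0.22, adjusted p = 0.0316), a call lost without AMLN-fed mouse 1, 2 or 3 or LF-fed mouse 2 or 4.

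The secreted Cd5l had 27.7, 40.2, 71.6 and 54.6 CPM in LF-fed and 117, 117, 104 and 136 CPM in AMLN-fed TSP1ΔPf4 mice. These groups did not overlap, and the means of 48.5 ± 18.9 and 118 ± 12.8 CPM (SD, n = 4 each) differed by a log2 fold change of 1.29 (SE 0.28, adjusted p = 0.0600). Cd68 had 1.12, 4.35, 3.15 and 0.902 CPM on the LF diet and 7.94, 8.72, 9.98 and 5.30 CPM on the AMLN diet. Its lowest AMLN-fed mouse was just above its highest LF-fed one, and the log2 fold change was 1.74 (SE 0.47, adjusted p = 0.0896). Adgre1 had 4.20, 5.85, 14.7 and 7.96 CPM against 12.1, 15.7, 14.7 and 17.0 CPM, with LF-fed mouse 3 inside the AMLN-fed range. Its log2 fold change was 0.87 (SE 0.35, adjusted p = 0.202), and 1.31 (adjusted p = 0.0383) without LF-fed mouse 3, when Cd5l was called too (1.53, adjusted p = 0.0230).

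**Figure D2:**
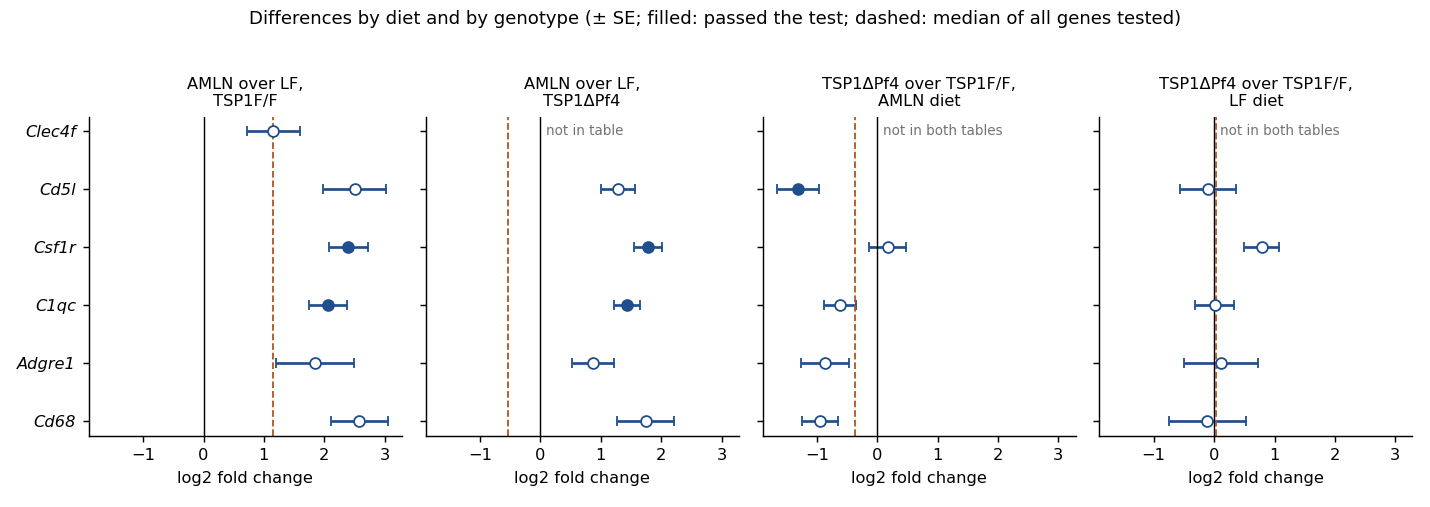
Log2 fold changes (points) with their SE for each gene in the 4 comparisons, filled where the test was passed, with 0 (solid line) and the median of all genes tested (dashed line). Csf1r and C1qc are filled for both diet comparisons and Cd5l alone for the genotypes on the AMLN diet, and in that panel Csf1r is the one gene to the right of 0.

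The second question was whether the livers of the genotypes differed on the AMLN diet. Here, on the LF diet and for the interaction, only genes that the authors had selected by diet in both genotypes could be tested. That selection used these same mice, so neither a member's difference nor the share of all genes is independent of it. Cd5l was lower in TSP1ΔPf4 livers, 0.402 times the TSP1F/F level, and was the 1 of 5 members called, against 8.46% of the 733 genes tested that were called lower. All 4 TSP1ΔPf4 mice lay below all 4 TSP1F/F mice for Cd5l, C1qc and Cd68, 3 of 5 members against 12.4% of all genes tested. Csf1r did not share that direction: its mean was 35.6 ± 8.68 CPM in TSP1ΔPf4 and 31.5 ± 10.7 CPM in TSP1F/F livers (SD, n = 4 each), with overlapping mice.

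The Cd5l difference was -1.31 on the log2 scale (SE 0.35, adjusted p = 0.0333), where the median of all genes tested was -0.38. Relative to that median it was -0.94. The nearest values of the groups were 195 CPM in TSP1F/F mouse 1 and 136 CPM in TSP1ΔPf4 mouse 4. With single mice removed the call stood in 2 of 8 fits, those without TSP1F/F mouse 1 or 2. Without TSP1F/F mouse 4, at 541 CPM, the log2 difference was -0.84 (adjusted p = 0.0871). Cd5l was not called with TMM scaling (-0.99, adjusted p = 0.0824), with DESeq2 (-0.93, adjusted p = 0.0634) or with all 16 mice in 1 fit (adjusted p = 0.0815). TMM and DESeq2 took their scaling from the diet-selected genes tested, and put the median of all genes at -0.10 and -0.03.

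For Cd68 the log2 difference was -0.95 (SE 0.30, adjusted p = 0.0751), from 15.4 ± 2.86 to 7.98 ± 1.98 CPM (SD, n = 4 each). With the replicate number as a block it was -0.97 (adjusted p = 0.0376) and was called, as was Cd5l (-1.18, adjusted p = 0.00487), and 116 in place of 66 genes were called. The labels give no such pairing, and the block was set after seeing these same mice, so these calls are a description only. C1qc differed by -0.62 (SE 0.26, adjusted p = 0.163) and by -0.24 relative to the median of all genes. Adgre1 differed by -0.86 (SE 0.40, adjusted p = 0.199), which became -0.36 without TSP1F/F mouse 4. Csf1r had a log2 difference of 0.18 (SE 0.31, adjusted p = 0.760), 0.55 above the median of all genes. In each scaling tried, Csf1r was above 0 and the other 4 members below it.

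On the LF diet no gene of 640 was called between the genotypes (0%) by edgeR, with 25 higher and 19 lower at an unadjusted p under 0.05, and DESeq2 called 1. The member nearest to a difference was Csf1r, whose 4 LF-fed TSP1ΔPf4 mice (9.03 to 12.0 CPM) all lay above the 4 TSP1F/F mice (4.85 to 7.88 CPM), as did 3.44% of all genes tested. Its log2 difference was 0.79 (SE 0.29, unadjusted p = 0.0190, adjusted p = 0.624). Cd5l (-0.10, SE 0.47), Cd68 (-0.11, SE 0.63), Adgre1 (0.11, SE 0.62) and C1qc (0.01, SE 0.32) had log2 differences smaller than their standard errors, and these changed sign when single mice were left out.

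The log2 fold change by diet was lower in TSP1ΔPf4 than in TSP1F/F livers for all 5 members. This difference between the genotypes, the interaction term, was below 0 for 67% of all genes tested, whether they rose or fell. No member's difference passed the test, as 0.409% of 734 genes did. The interaction term was -1.22 for Cd5l (SE 0.61, adjusted p = 0.360), -0.98 for Adgre1 (SE 0.79, adjusted p = 0.701; -2.01 without LF-fed TSP1F/F mouse 3 and -0.47 without AMLN-fed TSP1F/F mouse 4), -0.84 for Cd68 (SE 0.70, adjusted p = 0.732), -0.62 for C1qc (SE 0.39, adjusted p = 0.536) and -0.61 for Csf1r (SE 0.40, adjusted p = 0.555). The median of all genes tested was -0.34, and it was 0.01 with DESeq2 and 0.05 with TMM, with all 5 members still below 0. The genotype difference on the AMLN diet and the interaction use the same AMLN-fed mice, and both are limited to genes selected by diet in each genotype.

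Levels between genes were compared in FPKM, which divides by gene length. Cd5l had the highest mean in every group, at 25.5, 145, 23.8 and 58.2 FPKM in LF-fed and AMLN-fed TSP1F/F and LF-fed and AMLN-fed TSP1ΔPf4 livers. Clec4f followed with 23.7 FPKM on the LF diet, where Cd5l exceeded it in 2 of 4 mice, and with 52.8 FPKM on the AMLN diet, where it did so in 4 of 4. C1qc came next in each group, from 5.91 to 24.7 FPKM, above the genes that follow in 4 of 4 mice. Csf1r, Adgre1 and Cd68 lay between 1.22 and 12.3 FPKM, and neighbours among them changed order from mouse to mouse.

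The high mice were shared by some members and not by others. In LF-fed TSP1F/F livers mouse 3 was the highest for 5 of 6 genes, all but Csf1r. In AMLN-fed TSP1F/F livers mouse 4 was the highest for Clec4f, Cd5l, C1qc and Adgre1, and mouse 3 for Csf1r and Cd68. Among TSP1ΔPf4 livers, Cd5l, C1qc and Adgre1 shared their highest mouse, which was mouse 3 on the LF and mouse 4 on the AMLN diet. In no group did Csf1r share its highest mouse with Cd5l. For Cd5l, C1qc and Adgre1 the AMLN-fed TSP1ΔPf4 mice varied least of the 4 groups, with coefficients of variation of 10.8% for Cd5l and 13.7% for Adgre1, against 56.1% and 64.6% in TSP1F/F mice on that diet, while for Csf1r and Cd68 they did not.

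**Figure D3:**
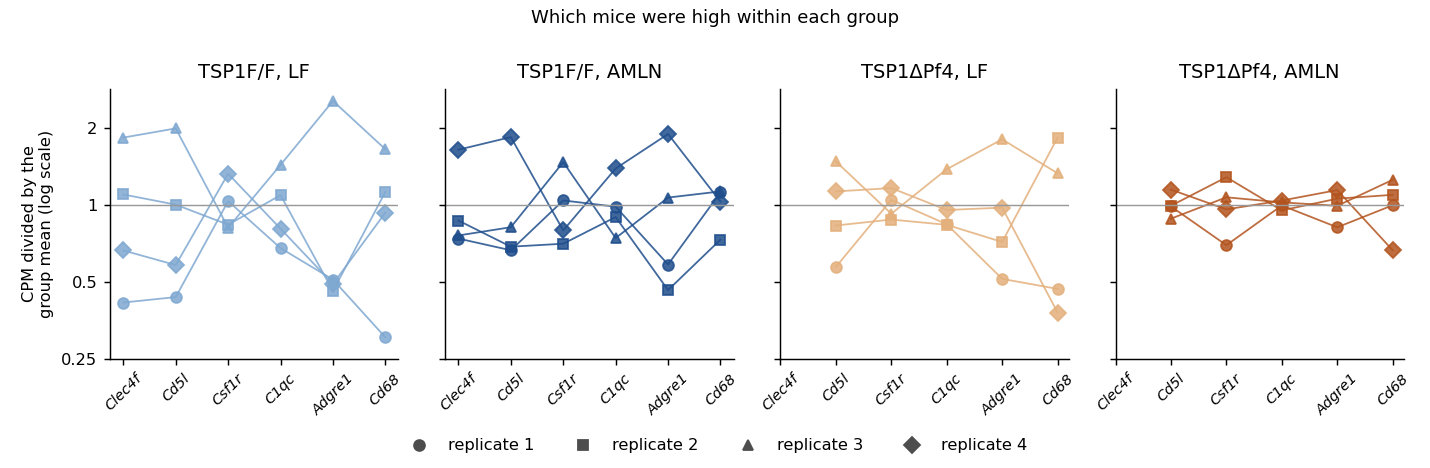
CPM of each mouse divided by the mean of its group (log scale), joined across the genes, in the 4 groups. Mouse 3 of the LF-fed and mouse 4 of the AMLN-fed TSP1F/F group are high for Clec4f, Cd5l, C1qc and Adgre1 and low for Csf1r, and the AMLN-fed TSP1ΔPf4 mice lie closest together for Cd5l, C1qc and Adgre1.

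A ratio of counts within a library does not depend on how libraries are scaled, so Clec4f and Cd5l were each divided by the 4 shared macrophage genes. The 20 ratios were tested by a two-sided exact permutation test, for which 0.0286 is the smallest p that 4 mice against 4 allow, and none passed Benjamini-Hochberg adjustment over the 20. Because of that limit, passing would need most of the 20 ratios to reach the smallest p together, so no conclusion is drawn from none passing. The log2 ratio of Clec4f to Cd68 was 4.91, 4.46, 4.64 and 4.00 in LF-fed TSP1F/F mice and 2.48, 3.32, 2.51 and 3.75 in the AMLN-fed mice. These groups did not overlap, and the mean difference was -1.49, or 0.357 times the LF level (exact p = 0.0286, adjusted p = 0.190). Against C1qc the difference was -0.79 (exact p = 0.0571, adjusted p = 0.190), against Csf1r -1.08 (exact p = 0.200, adjusted p = 0.400) and against Adgre1 -0.77 (exact p = 0.171, adjusted p = 0.381), all below 0.

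Cd5l did not show a lower ratio by diet in TSP1F/F livers: its log2 ratio to Cd68 differed by -0.16, to Csf1r by 0.25, to C1qc by 0.53 and to Adgre1 by 0.55, all with overlapping mice. Between the genotypes on the AMLN diet, the log2 ratio of Cd5l to Csf1r was 2.58, 3.18, 2.38 and 4.43 in TSP1F/F mice and 2.23, 1.36, 1.45 and 1.99 in TSP1ΔPf4 mice. The groups did not overlap and differed by -1.38 (exact p = 0.0286, adjusted p = 0.190). In TSP1ΔPf4 livers the log2 ratio of Cd5l to Adgre1 was 0.36 higher on the AMLN diet (exact p = 0.0286, adjusted p = 0.190), also without overlap.

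**Figure D4:**
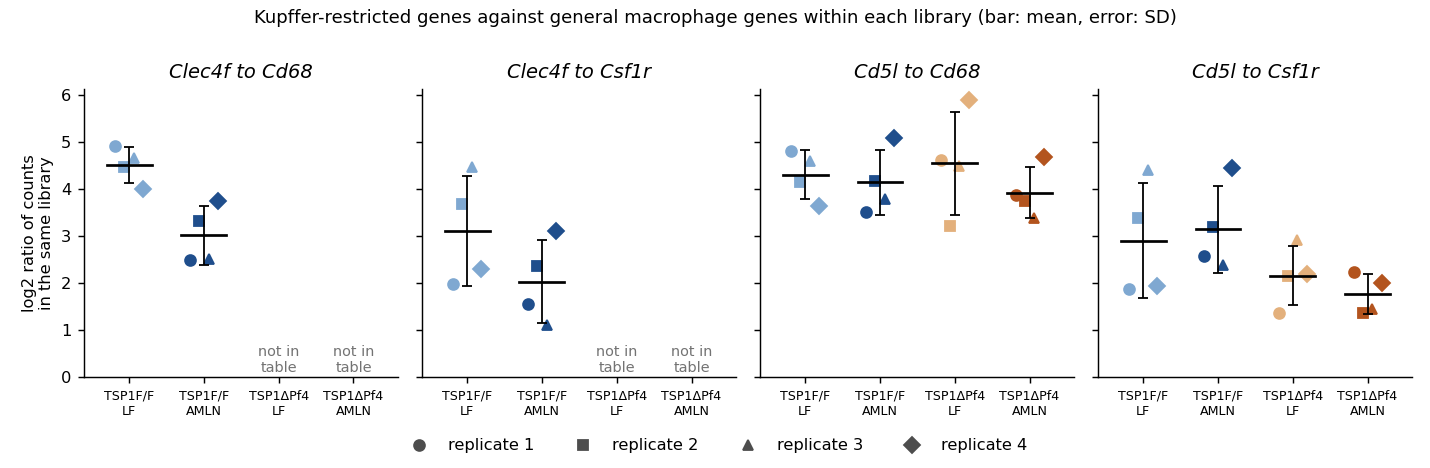
Log2 ratio of the counts of Clec4f or Cd5l to those of Cd68 or Csf1r in the same library, for each mouse (points) with the group mean (bar) and SD (error). The ratio of Clec4f to Cd68 is lower in all 4 AMLN-fed than in all 4 LF-fed TSP1F/F mice, and the ratio of Cd5l to Csf1r is lower in all 4 AMLN-fed TSP1ΔPf4 than in all 4 AMLN-fed TSP1F/F mice.

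Other Kupffer cell genes did not move as one group. Of a list of 16, 8 were in the TSP1F/F table, 6 higher and 2 lower on the AMLN diet, and none was called, with a median log2 fold change of 1.30 against 1.15 for all genes tested. Cd163, the scavenger receptor for haemoglobin bound to haptoglobin, had 129, 88, 40 and 99 counts in LF-fed TSP1F/F mice and 29, 9, 0 and 0 in those fed AMLN. That is a log2 fold change of -3.71 (SE 1.12, adjusted p = 0.237) with no overlap, opposite in direction to Clec4f and Cd5l. Marco, a scavenger receptor for bacteria and particles, had 20, 19, 163 and 61 counts against 28, 8, 28 and 0. In CPM that was 1.04, 1.02, 8.99 and 2.29 against 0.847, 0.359, 0.704 and 0, again with no overlap. Its log2 fold change was -2.75 (SE 1.03, adjusted p = 0.371). Fabp7, a fatty acid binding protein (2.49, SE 0.58, adjusted p = 0.111), and Il18bp, the secreted inhibitor of IL18 (1.97, SE 0.37, adjusted p = 0.0555), had the largest positive values and were not called either. In TSP1ΔPf4 livers 4 of the 16 were analysed: Vsig4, a complement receptor (1.16, SE 0.21, adjusted p = 0.0448), and Hmox1, the inducible heme oxygenase (1.26, SE 0.21, adjusted p = 0.0316), rose, and Cd163 had -1.79 (SE 0.46, adjusted p = 0.0844). The calls of Vsig4 and Hmox1 each stood in 2 of 8 fits that omitted a mouse, those without LF-fed mouse 3 or AMLN-fed mouse 4. None of the 4 was called between the genotypes on the AMLN diet, and the largest difference was that of Cd163 (1.62, SE 1.08, adjusted p = 0.396).

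Of 18 general macrophage genes, 14 were in the TSP1F/F table and all 14 were higher on the AMLN diet, 6 of them called, where 63.4% of all genes tested were higher and 2.39% were called higher. Examples are Cybb, a subunit of the phagocyte oxidase (3.03, adjusted p = 0.0138), and Cd74, the invariant chain of MHC class II (2.88, adjusted p = 0.0195). Both calls were lost without AMLN-fed mouse 3 or LF-fed mouse 4, and that of Cd74 also without LF-fed mouse 1. In TSP1ΔPf4 livers all 10 analysed were higher and 5 were called, against 42.9% and 1.46% of all genes tested. Between the genotypes on the AMLN diet all 10 were lower in TSP1ΔPf4 livers, as were 73.1% of all genes tested, and 3 were called, against 8.46% of all genes: Lyz2, lysozyme (-2.51, adjusted p = 0.0162), Fcgr1, a high-affinity Fc receptor (-1.60, adjusted p = 0.0182), and Sirpa, an inhibitory receptor for CD47 (-1.35, adjusted p = 0.0182). Without AMLN-fed TSP1F/F mouse 4 the Lyz2 value was -1.59 (adjusted p = 0.0207), and its call was lost without TSP1ΔPf4 mouse 2. Those of Fcgr1 and Sirpa were lost without TSP1ΔPf4 mouse 1, 2 or 3. A further list of 12 genes held the ligands of the CSF1 receptor, Csf2 (GM-CSF) with its receptor chains Csf2ra and Csf2rb, and myeloid transcription and signalling genes. Of these, 8 were tested in TSP1F/F and 7 in TSP1ΔPf4 livers, and neither Csf1 nor Il34 was among the 7. All genes tested from this list were higher on the AMLN diet and none was called, among them Spi1 at 2.48 (SE 0.48, adjusted p = 0.0610) and 1.47 (SE 0.44, adjusted p = 0.111).

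Markers of monocytes and monocyte-derived macrophages are given beside the members. Of 14 such genes, 10 were tested in TSP1F/F livers, and all 10 were higher on the AMLN diet, as were 63.4% of all genes tested. The 3 called, against 2.39% of all genes called higher, were Gpnmb (7.70, adjusted p = 0.0138), Trem2 and Itgax (5.47, adjusted p = 0.0442). In LF-fed mice Gpnmb had only 0, 0, 4 and 12 counts and Itgax 0, 4, 0 and 8. The call of Trem2, a lipid-sensing receptor (4.71, adjusted p = 0.0138), was lost without LF-fed mouse 4. That of Itgax was lost in all 8 fits that omitted a mouse. In TSP1ΔPf4 livers all 7 tested were higher on the AMLN diet, as were 42.9% of all genes tested. The 2 called, against 1.46% of all genes, were Gpnmb (5.09, adjusted p = 0.0110) and Mmp12, macrophage elastase (3.45, adjusted p = 0.00706). Both calls were lost only without LF-fed mouse 4. LF-fed TSP1ΔPf4 mice had few counts, 3, 7, 0 and 6 for Gpnmb and 10, 9, 17 and 8 for Mmp12. On the AMLN diet all 8 tested were lower in TSP1ΔPf4 livers, as were 73.1% of all genes tested. Of the 8, 4 were called, against 8.46% of all genes, among them Mmp12 (-3.71, adjusted p = 0.00268) and Clec7a, a receptor for fungal glucans (-3.42, adjusted p = 0.00906). Without AMLN-fed TSP1F/F mouse 4 these values were -3.06 (adjusted p = 0.00185) and -2.15 (adjusted p = 0.00993). On the LF diet 4 of 5 were lower, as were 47% of all genes tested, and none was called. The summed level of the 8 genes in both tables ranged from 6.23 to 29.7 CPM in LF-fed and from 153 to 820 CPM in AMLN-fed TSP1F/F mice, and from 5.99 to 13.2 CPM and from 33.2 to 54.4 CPM in TSP1ΔPf4 mice. None of the list's genes in the tables was at 0 in every mouse of a group. None of the hepatocyte genes tested, which mark the labelled tissue, was called by diet. Ttr and Serpina1c together stood at 5228 to 7642 CPM in LF-fed and 2253 to 5210 CPM in AMLN-fed TSP1F/F mice, and at 6070 to 7203 and 3766 to 4913 CPM in TSP1ΔPf4 mice. The part of either cell population in the members' differences was not tested.

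The genes whose levels were most like each member's are given as a description, with Pearson's r of log2 CPM over mice of different diets that share the diet difference. For Clec4f, over the 8 TSP1F/F mice, they were Ifi27l2a, an interferon-inducible gene (r = 0.999), Cfp, properdin, which stabilizes the alternative complement pathway (r = 0.996), and Clec12a, an inhibitory lectin of myeloid cells (r = 0.979). Ifi27l2a stood at 2.40, 10.3, 21.1 and 4.54 CPM in LF-fed and 18.0, 24.4, 19.4 and 58.8 CPM in AMLN-fed mice, so that the same mice were high and low as for Clec4f. Over all 16 mice, Cd5l was most like C1qb (r = 0.987), C1qc like Ctss, the lysosomal protease cathepsin S (r = 0.963), and Adgre1 like Cd44, a hyaluronan receptor (r = 0.957). Next for Cd5l came Cd300ld (r = 0.963) and Mmp12 (r = 0.961), the latter from the list of monocyte and monocyte-derived macrophage markers. For C1qc these were C1qb (r = 0.962) and Lpl (r = 0.949), and for Adgre1 they were Cd48 (r = 0.939) and Cd300ld (r = 0.918). Cd68 was most like Sirpa (r = 0.935), followed by Ccnb2 (r = 0.920) and Cd72 (r = 0.919). Csf1r was most like Axl, a receptor tyrosine kinase that binds Gas6 (r = 0.963), Cd74 (r = 0.961) and Itgb7 (r = 0.954). Cd74 had means of 27.7 ± 9.70 and 204 ± 97.0 CPM in LF-fed and AMLN-fed TSP1F/F livers and of 49.7 ± 10.1 and 167 ± 41.7 CPM in TSP1ΔPf4 livers (SD, n = 4 each).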

How the data were processed

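Liver RNA of 16 mice was sequenced by the authors, who deposited 2 tables, 1 for each genotype. The raw counts per gene, the FPKM values and the normalized signal (counts divided by 1 size factor per library) were made by the authors and deposited for each mouse. The deposited log2 fold changes and p-values are the authors' own diet comparison; the p-values served here only to find the selection (the largest is 0.0499) and how many genes that adjustment had covered, and the fold changes were not used. The study's methods name STAR, the submitters' processing notes name HISAT2 and DESeq2, and both name mm10; which aligner made the deposited counts, the counting program and the annotation release are not given in the sources used here. All columns of single mice were matched, and 0 were left out.

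Library totals were computed from count, gene length and FPKM. Genes low in counts were removed by filterByExpr, and edgeR 4.0.16 in R 4.3.3 gave the tests (quasi-likelihood, prior count 0.125), without TMM, which needs unselected genes. Adjustment (Benjamini-Hochberg) covered 16784 and 13927 genes for the diet, as the authors' own did, and the genes tested (of the 752 in both tables) for the genotypes and the interaction. The dispersion was estimated from selected genes, and p-values weigh a difference against the spread between mice as estimated across those genes. SE is the log2 fold change divided by the root of the F statistic. Ratios used counts plus 0.5 and likeness log2(CPM + 0.5). The fits were also run on simulated counts in which most genes were unchanged. In the real data every gene had been selected for a diet difference, so no conclusion about the calls is drawn from that run. On the AMLN diet, deviations of same-numbered mice of the genotypes from their group means had r = 0.239, 0.123, 0.253 and 0.316. TSP1F/F mouse 2 was, however, most like TSP1ΔPf4 mouse 4. A replicate block is given there as an alternative, and the pairing comes from this check, not from the labels. The genes, the 14 lists and the rule for naming genes (the members, up to 4 genes of a list with the largest absolute fold change, and the 3 genes most like each member) were set with earlier results of these data known. Alternatives were DESeq2 1.42.0, TMM, the deposited size factors, no filter, adjustment over the genes tested, the block, all 16 mice in 1 fit and each mouse left out. DESeq2 and TMM took their scaling from the selected genes tested.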

Additional observations from a re-analysis of the deposited data

Results flagged for a closer look

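A mouse was taken as standing apart where its gap to the nearest of the other three in its group was a larger share of the group's range than Dixon's critical value for 4 values. Of 46 groups of values tested, 4 had such a mouse, and chance gives about 1 in 20. In the AMLN-fed TSP1F/F group, mouse 4 stood apart for Clec4f, at 214 CPM, and for Cd5l, at 541 CPM. In the LF-fed TSP1F/F group, mouse 3 stood apart for Adgre1, at 19.2 CPM. In the LF-fed TSP1ΔPf4 group, mouse 3 stood apart in the log2 ratio of Cd5l to Adgre1, at 2.28.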

How the results depend on the processing

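Every member kept the direction of its diet difference, of its interaction and, on the AMLN diet, of its genotype difference under all alternatives and with each mouse left out. On the LF diet C1qc turned to -0.043 with the deposited size factors and Cd5l to 0.059 with the replicate block, and with 1 mouse left out values crossed 0 for Adgre1 (-0.33 to 1.15), C1qc (-0.19 to 0.23), Cd5l (-0.35 to 0.47) and Cd68 (-0.58 to 0.23). Log2 ratios that crossed 0 with 1 mouse left out were those of Cd5l to Csf1r (-0.18 to 0.75) and to Cd68 (-0.48 to 0.046) by diet in TSP1F/F livers, to Cd68 on the AMLN diet (-0.47 to 0.10), and to C1qc (-0.12 to 0.25) and Cd68 (-0.20 to 0.69) on the LF diet. The cause was not tested in any of these. Counts of genes called moved more. In TSP1F/F livers the 52 genes called by diet (50 higher, 2 lower) were 741 with DESeq2 (285 higher, 456 lower), 83 without the filter, 10 with the block, 1124 when adjusted over the genes tested, and 2 (without LF-fed mouse 4) to 61 (without LF-fed mouse 3) with 1 mouse left out. In TSP1ΔPf4 livers the 92 (45 higher, 47 lower) were 1376 with DESeq2 (1010 higher, 366 lower), 198 with TMM (160 higher, 38 lower), 4 with the block, 2187 when adjusted over the genes tested, and 1 (without LF-fed mouse 4) to 182 (without AMLN-fed mouse 4). Between the genotypes on the AMLN diet the 66 (4 higher, 62 lower) were 116 with the block, 73 with DESeq2 (17 higher, 56 lower), 48 with TMM (11 higher, 37 lower), and 22 (without TSP1ΔPf4 mouse 2) to 84 (without TSP1F/F mouse 2). The interaction's 3 were 44 with DESeq2, 15 with TMM, 8 with the deposited size factors, 0 with the block and 0 to 24 (without AMLN-fed TSP1F/F mouse 2), and on the LF diet DESeq2 called 1 in place of 0. With DESeq2 the members called by diet were Cd5l, Csf1r, C1qc and Cd68 in TSP1F/F livers and all 5 in TSP1ΔPf4 livers, and with adjustment over the genes tested all 6 and all 5 were called. With the block no member was called by diet (lowest adjusted p 0.0785). Outside the AMLN-fed genotypes the r of same-numbered mice ran from -0.417 to 0.338, and the labels give no pairing in any comparison.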

Other observations

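Other cell types that whole liver holds were represented by few genes of their lists. In TSP1F/F livers Col3a1, a fibrillar collagen made by stellate cells, rose on the AMLN diet (log2 fold change 2.87, SE 0.42, adjusted p = 0.0214), 1 of the 4 stellate cell genes tested, a call lost without AMLN-fed mouse 3 or 4 or LF-fed mouse 1 or 4. On that diet it was lower in TSP1ΔPf4 than in TSP1F/F livers (-1.72, SE 0.39, adjusted p = 0.0182; not called without TSP1ΔPf4 mouse 2 or TSP1F/F mouse 3), while Col1a1 had -0.08 (SE 0.72) and Pdgfrb -0.07 (SE 0.40). Cd8a, the T cell coreceptor and the 1 gene of the T and NK cell list that was tested, rose on the AMLN diet in TSP1F/F livers (6.55, SE 1.14, adjusted p = 0.0442, a call lost in all 8 fits that omitted a mouse) and had 3.39 (SE 0.98, adjusted p = 0.103) in TSP1ΔPf4 livers. Its counts were near the floor, at 0, 0, 1 and 0 in LF-fed and 25, 33, 129 and 19 in AMLN-fed TSP1F/F mice. LF-fed TSP1ΔPf4 mice had 8, 0, 0 and 0. Genes of the neutrophil, dendritic cell, B cell and platelet lists were tested only by diet in TSP1F/F livers. Cholangiocyte genes were tested only by diet, and none of these lists was tested between the genotypes. No gene tested from these lists was called by edgeR, nor was any sinusoidal endothelial or hepatocyte gene in the 5 comparisons. In TSP1F/F livers these included S100a8 of neutrophils (2.13, unadjusted p = 0.0175), Clec9a of dendritic cells (1.26, unadjusted p = 0.0657), Cd79b of B cells (1.29, unadjusted p = 0.0566), Lyve1 of the sinusoidal endothelium (1.69, unadjusted p = 0.00500), Krt7 of cholangiocytes (2.77, unadjusted p = 0.0354), Serpina1c of hepatocytes (-1.11, unadjusted p = 0.00846) and Pf4 of platelets (3.14, unadjusted p = 0.00645). Of 9 genes of C1q and its enzymes, 3 were tested in each genotype and none was called.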
